A study of Homo sapiens with 10 samples.

Results

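The genes described here are the human ZNF genes, which carry the approved zinc finger symbol with a number, whose deposited transcript is longer than 3300 nt and gathered at least 16 tags over 8 libraries of HEK293 cells, a human embryonic kidney line. Members were thus chosen by their summed tags and their length and not by any change between groups, and the rule kept 195 of the 25005 transcripts listed and of the 432 ZNF transcripts among them. The summed tags came mostly from libraries without crosslinking, so transcripts near the limit could pass it through those groups alone. Another 192 ZNF transcripts reached 16 tags but were no longer than 3300 nt, and are called shorter ZNF transcripts. The study sequenced polyadenylated RNA of cells handled as for crosslinking of RNA-binding proteins to RNA. The 4 groups of 2 libraries, lettered A and B, were cells given 1 mM 4-thiouridine (4SU, a uridine analogue built into new RNA) for 12 to 14 h and crosslinked with ultraviolet light at 365 nm, cells given the same 4SU without crosslinking, cells crosslinked at 254 nm without 4SU, and untreated cells with neither. Cells given an siRNA to HuR or to GFP, with neither 4SU nor light, gave 1 library each. Whether libraries A and B come from different cultures is not stated, so every p-value reflects the variation between libraries, which may be technical.

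Classical zinc finger proteins bind DNA through repeated C2H2 fingers, each a short loop in which a pair of cysteines and a pair of histidines hold a zinc ion. Many ZNF proteins, above all those in the clusters of chromosome 19, also carry a KRAB box, which recruits the corepressor TRIM28 and with it the machinery of heterochromatin, often over transposable elements. Their genes are usually expressed at low levels, and their mRNAs often carry a large noncoding part.

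The coding sequence of 1 finger with the residues after it is shown for 4 members that show the kinds of change described below: ZNF217 and ZNF614, among the largest decreases after crosslinking, ZNF282, 1 of 2 members called in opposite directions under the 2 kinds of light, and ZNF480, which was higher under both. Each is the first stretch of the protein that holds C-X2-C-X12-H-X3-H, read from the GENCODE v29 transcript (GRCh38 coordinates, an independent match, since the build of the deposited files is not given in the sources used here). Each spans 84 bases, or 28 codons, and lies within 1 coding exon. Capitals mark the codons of the zinc-binding cysteines and histidines.
ZNF217, chr20:53582356-53582439, minus strand, exon 1: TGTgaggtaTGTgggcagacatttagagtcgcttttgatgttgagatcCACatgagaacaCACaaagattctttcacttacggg
ZNF614, chr19:52016650-52016733, minus strand, exon 5: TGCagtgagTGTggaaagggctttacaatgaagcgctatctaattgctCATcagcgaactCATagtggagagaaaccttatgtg
ZNF282, chr7:149224189-149224272, plus strand, exon 8: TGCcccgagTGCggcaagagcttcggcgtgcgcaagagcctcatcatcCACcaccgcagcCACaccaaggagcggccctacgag
ZNF480, chr19:52321947-52322030, plus strand, exon 5: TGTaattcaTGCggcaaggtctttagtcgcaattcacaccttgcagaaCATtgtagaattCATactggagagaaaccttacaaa
The zinc-binding codons stand at the same places in all 4 because the stretches were picked by that spacing. Uridine (T in these letters) made up 29.8% of the ZNF217 stretch, 26.2% of the ZNF614 stretch, 10.7% of the ZNF282 stretch and 27.4% of the ZNF480 stretch. Over the whole transcripts it made up 27.9%, 28.7%, 17.4% and 23.9% in the same order.

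Members were 3301 to 12171 nt long, with a median of 4621 nt, and 85 of the 195 (43.6%) lay on chromosome 19. GENCODE v29 held a transcript for 180 members. Of these, 104 encoded a KRAB A box, scored as at least 16 of 39 residues identical to a consensus of the ZNF proteins themselves, and 76 did not. No member scored between 12 and 17. The median number of C2H2 fingers was 11, with a range of 0 to 34. In the 150 members whose GENCODE transcript covered at least 80% of the deposited length, the median coding part was 2004 nt and the median noncoding part 2415 nt, and in 95 of them the noncoding part was the longer. The uridine share had a median of 26.4% in members and 24.6% in all tested features, and the GC share 42.5% in members and 49.4% in all tested features. Just inside the length limit lay ZNF213 at 3301, ZNF263 at 3305 and ZNF808 at 3311 nt, and just outside it ZNF502 at 3288, ZNF267 at 3281 and ZNF189 at 3280 nt. Just inside the tag limit lay ZNF365 with 17 tags and ZNF658 and ZNF441 with 19 each, and just outside it ZNF257 with 13.6, ZNF662 with 9.37 and ZNF208 with 7.18.

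Tags over the 8 libraries numbered 17 to 5868 per member, with a median of 274, and libraries held 2238569 to 3099769 tags. The filter on low counts passed 179 members. The other 16, with 17 to 69 tags each, were ZNF90, ZNF169, ZNF286B, ZNF320, ZNF365, ZNF438, ZNF441, ZNF471, ZNF492, ZNF626, ZNF658, ZNF677, ZNF716, ZNF813, ZNF827 and ZNF836. At least 1 tag was seen for 178 and 179 of the 195 members in the 365 nm libraries, 190 and 182 in the 254 nm libraries, and all 195 in each library without crosslinking. These counts are partly set by the tag limit, since all 17 tags of ZNF365 came from libraries without crosslinking. In 107 members some tags came in fractions, which the deposited files show where a tag matched several transcripts, so their values are uncertain. Among the members named below these are ZNF84, ZNF91, ZNF117, ZNF185, ZNF202, ZNF276, ZNF280C, ZNF318, ZNF329, ZNF407, ZNF445, ZNF480, ZNF532, ZNF544, ZNF557, ZNF587, ZNF592, ZNF609, ZNF611, ZNF621, ZNF644, ZNF770, ZNF776 and ZNF814. By level per length, the mean of the 8 libraries in normalised tags per 1000000 tags (CPM) per kilobase, ZNF711 stood highest with 45.5. ZNF711 is an X-linked gene of intellectual disability whose protein works with the histone demethylase PHF8. It was followed by ZNF146, a protein of little more than fingers, with 29.1, then ZNF276 with 16.7, ZNF544 with 14.9, ZNF282 with 14.8, ZNF335 with 10.4, ZNF512B with 9.88 and ZNF263 with 9.50. The median over all members was 1.76 CPM per kilobase. That mean pools crosslinked and uncrosslinked cells. In untreated cells alone the highest level per length was that of ZNF711, at 107 ± 47.8 CPM per kilobase (SD, n = 2), then ZNF146 at 47.9 ± 16.9, ZNF276 at 18.6 ± 0.54 and ZNF544 at 13.2 ± 2.28. The next were ZNF512 at 13.1 ± 0.85, ZNF638 at 13.0 ± 7.13, ZNF512B at 12.9 ± 4.58 and ZNF282 at 11.7 ± 5.0002, and from ZNF544 on these neighbours lay closer together than their spread.

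Crosslinked libraries held fewer tags of these transcripts. Members took 0.0550% and 0.0604% of the tags in 4SU cells crosslinked at 365 nm, against 0.602% and 0.774% in 4SU cells without crosslinking. They took 0.176% and 0.125% after 254 nm, against 0.508% and 0.663% in untreated cells. Each library as a whole moved with this. The median tag lay in a transcript of 1147 and 1431 nt in 365 nm cells, against 2373 and 2850 nt in 4SU cells. This length was 1534 and 1305 nt in 254 nm cells, against 2666 and 3029 nt in untreated cells. Fewer cells of a kind and less RNA per cell cannot be told apart in such bulk samples. Of 9 markers fixed for HEK293 cells, EPCAM had 6032 tags over the 8 libraries, NEFL 5320, IRS4 4089, KRT18 990, VIM 162 and NEFM 63. PAX2 with 46 tags, KRT8 with 14 and LHX1 with 9 did not pass the filter on low counts. Of 11 markers of blood, endothelial, fibroblast and liver cells, COL1A1 had 446 tags and no other had more than 10, and CD3E, HBB, ALB and APOA1 were not analysed here.

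The first comparison asked how RNA from 4SU cells changed with 365 nm crosslinking. Of 179 members that passed the filter on low counts, 136 fell and 3 rose in 4SU cells crosslinked at 365 nm relative to 4SU alone (edgeR quasi-likelihood test, adjusted p under 0.05). Among all 13732 features tested, 33.7% were called lower and 26.1% higher. Among the tested features over 3300 nt these shares were 52.5% and 11.9%, and among members 76.0% and 1.68%. The median log2 fold change was -1.96 in members, or -1.94 with the 4 members at 0 tags set to a floor of 3 tags. It was -1.48 in the 177 shorter ZNF transcripts tested, -1.23 in the other tested features over 3300 nt and -0.50 in all features. The members' median stayed below that of all features under every scaling tried. Scaled by library totals alone, without TMM factors, which moved the median of all features to -2.40, it was -3.89. Without library B of the 365 nm group 71 members were called lower, 136 with it.

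**Figure D1:**
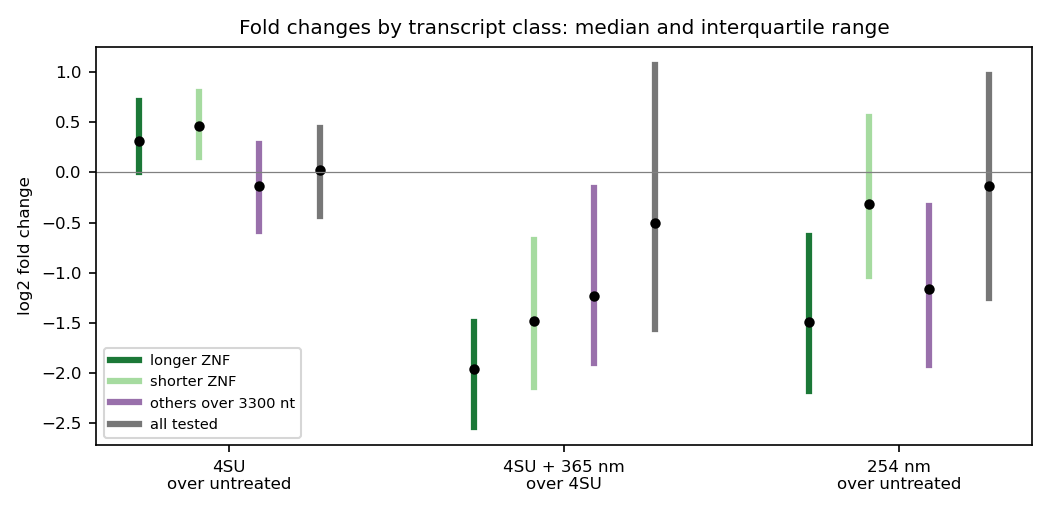
Log2 fold changes (vertical axis) in the 3 contrasts over replicated groups, for longer ZNF transcripts, shorter ZNF transcripts, other tested features over 3300 nt and all tested features. Dots are medians and bars span the interquartile range; at 365 nm the longer ZNF transcripts have the lowest median, -1.96, and at 254 nm their median is -1.49.

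The 2 most abundant members fell together. ZNF711 had 48.3 and 29.4 CPM in 365 nm cells, against 186 and 188 CPM in 4SU cells, a log2 fold change of -2.29 ± 0.41 (SE; adjusted p = 1.15e-05). ZNF146 had 33.7 and 29.4 CPM in 365 nm cells, against 166 and 220 CPM in 4SU cells, a log2 fold change of -2.62 ± 0.38 (adjusted p = 1.93e-07). In both genes the groups lay several fold apart with no overlap.

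The largest decreases measured from tags in both groups were in ZNF614, a KRAB protein of 10 fingers, and in ZNF516, a finger protein of transcriptional repression and brown fat. ZNF614 had 2.25 and 2.10 CPM in 365 nm cells, against 31.5 and 26.4 CPM in 4SU cells (log2 fold change -3.72 ± 0.61, adjusted p = 2.09e-06). ZNF516 had 0 and 2.80 CPM in 365 nm cells, against 21.02 and 19.2 CPM in 4SU cells (-3.54 ± 0.66, adjusted p = 2.04e-05). ZNF229 and ZNF814, both with KRAB boxes, fell by 3.38 and 3.21 on the log2 scale (adjusted p = 4.69e-05 and 0.000114). The 365 nm values of these 4 genes rest on 4 to 5 tags over both libraries.

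Another 4 tested members had no tag at all in either 365 nm library, nor did the untested ZNF365, ZNF441 and ZNF658. The untested ones passed the tag limit through other groups, so nothing is read from their absence. ZNF215, an imprinted-region gene, had 16 and 23 tags in 4SU cells, and ZNF624 had 12 and 22. ZNF25 had 16 and 14 tags in 4SU cells, and ZNF322 had 11 and 11. With counting error in both groups, 95% exact intervals of the log2 ratio reached up to -1.40 for ZNF215, -1.01 for ZNF25 and -0.52 for ZNF322. Folds against a floor take the 4SU counts as exact and are no lower bounds. With the 365 nm group set at 3 tags, ZNF215 was 3.41-fold lower, ZNF624 2.98-fold, ZNF25 2.63-fold and ZNF322 1.93-fold lower. All 4 passed the test (adjusted p = 0.00146, 0.00253, 0.00387 and 0.0111), but without library B of the 365 nm group ZNF624, ZNF25 and ZNF322 did not (adjusted p = 0.0656, 0.0764 and 0.131), nor did ZNF322 without library A (0.058).

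Only ZNF695, ZNF480 and ZNF185 rose at 365 nm among the 179 tested, and each turned to a slight decrease with library totals (log2 fold changes -0.12, -0.11 and -0.37). ZNF695, a KRAB protein, had 30.3 and 16.1 CPM in 365 nm cells, against 6.82 and 5.84 CPM in 4SU cells (1.84 ± 0.46, adjusted p = 0.000911). ZNF480, also KRAB, had 31.4 and 30.1 CPM in 365 nm cells, against 8.52 and 8.86 CPM in 4SU cells (1.82 ± 0.43, adjusted p = 0.000466). ZNF185 is a LIM-domain protein of the actin cytoskeleton in which no C2H2 finger was found. It had 12.4 and 17.5 CPM in 365 nm cells, against 4.26 and 6.03 CPM in 4SU cells (1.54 ± 0.50, adjusted p = 0.0077), and was not called without library B of the 365 nm group (0.157) or library A of the 4SU group (0.0767). Between these extremes ZNF544, the fourth highest by level per length, had 64.0 and 48.3 CPM in 365 nm cells, against 56.2 and 69.9 CPM in 4SU cells, and the groups overlapped (-0.18 ± 0.34, adjusted p = 0.654).

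**Figure D2:**
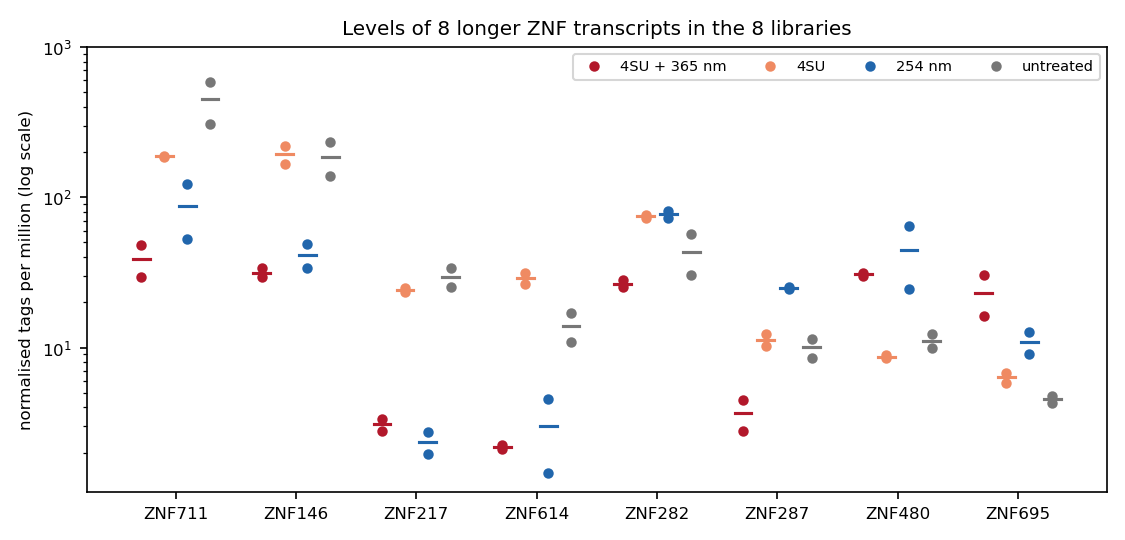
Normalised tags per 1000000 tags (log axis) of 8 named members in each library of the 4 groups, drawn as 4SU with 365 nm, 4SU, 254 nm and untreated from left to right; dots are libraries and lines are means of 2. ZNF711, ZNF146, ZNF217 and ZNF614 are lower in both crosslinked groups than in their uncrosslinked groups, ZNF282 and ZNF287 are lower at 365 nm and higher at 254 nm, and ZNF480 and ZNF695 are higher at both.

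The second comparison asked the same of 254 nm light on cells without 4SU. Here 105 of 179 members (58.7%) fell and 7 (3.91%) rose relative to untreated cells, where 28% of all features tested were called lower and 25.2% higher. Of the tested features over 3300 nt, 53.6% were called lower and 3.37% higher, close to the shares of members. The median log2 fold change was -1.49 in members, -0.31 in shorter ZNF transcripts, -1.16 in the other features over 3300 nt and -0.14 in all features. Without library B of the 254 nm group 68 members were called lower. With a correction for transcript length 32 members were called lower, where 2404 of all 13732 features were. With length and GC trends removed 17 members were called lower, where 1513 of all 11197 features were. In that fit the median was -0.19 in members and -0.15 in all features. The same 2 corrections left 83 and 91 members called lower at 365 nm, where 3611 of 13732 and 3638 of 11197 features were. Medians there were -1.17 and -1.18 in members and -0.38 and -0.44 in all features.

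ZNF217, an oncogene product of corepressor complexes that hold CtBP and the demethylase LSD1, had 2.73 and 1.95 CPM in 254 nm cells, against 25.3 and 33.8 CPM in untreated cells (-3.63 ± 0.50, adjusted p = 3.57e-07). ZNF280C had 1.36 and 0 CPM in 254 nm cells, against 8.36 and 22.9 CPM in untreated cells (-4.38 ± 0.74, adjusted p = 6.92e-06). ZNF770, of 11 fingers, had 3.18 and 3.42 CPM in 254 nm cells, against 28.7 and 42.1 CPM in untreated cells (-3.40 ± 0.47, adjusted p = 3.72e-07). In these 3 the groups lay far apart, and each kept its call under the length and the GC corrections. The 254 nm values of ZNF280C rest on 3 and 0 tags, and those of ZNF217 on 6 and 4. ZNF611, ZNF621, ZNF493 and ZNF292, whose product in the rat activates the growth hormone gene, fell by 3.43, 3.39, 3.38 and 3.25 on the log2 scale (adjusted p = 0.00165, 1.25e-05, 0.00177 and 2.04e-06). The call for ZNF493 was lost without library B of the 254 nm group (0.0503) or library B of the untreated group (0.0803), and with length and GC trends removed ZNF611, ZNF493 and ZNF292 were not called (0.147, 0.312 and 0.109). ZNF117 had no tag in either 254 nm library, against 10 and 18 tags in untreated cells. With counting error in both groups, its 95% exact interval of the log2 ratio reached up to -1.78. With the 254 nm group set at the floor of 3 tags, ZNF117 was 4.52-fold lower (edgeR adjusted p = 0.00114). With length and GC trends removed its adjusted p was 0.131. At 365 nm ZNF117 had 3 and 1 tags, against 8 and 31 tags in 4SU cells, and was not called (0.202).

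The members that rose at 254 nm were ZNF480, ZNF853, ZNF287, ZNF695, ZNF628, ZNF282 and ZNF213. ZNF480 had 24.5 and 64.5 CPM in 254 nm cells, against 9.96 and 12.2 CPM in untreated cells (2.001 ± 0.40, adjusted p = 6.72e-05, and 0.0542 without library B of the 254 nm group). ZNF853 had 27.7 and 29.8 CPM in 254 nm cells, against 8.17 and 10.9 CPM in untreated cells (1.60 ± 0.39, adjusted p = 0.000799). ZNF628, the poorest in uridine of the members with a GENCODE transcript at 13.9%, had 20.4 and 15.6 CPM in 254 nm cells, against 10.8 and 4.52 CPM in untreated cells (1.21 ± 0.44, adjusted p = 0.0186). ZNF853, ZNF287, ZNF695, ZNF628 and ZNF282 were not called with library totals, and ZNF628 not without library A of the 254 nm group (0.106) or library B of the untreated group (0.157). ZNF695 rose by 1.25 ± 0.48 (adjusted p = 0.0245) and was not called without library B of the 254 nm group (0.193) or library B of the untreated group (0.0564). The libraries of ZNF213 overlapped between the groups. Without library B of the 254 nm group, or library B of the untreated group, 4 members were called higher.

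The 2 crosslinking comparisons share no library. Of the members called lower, 86 were called in both, which is 63.2% of the 136 at 365 nm and 81.9% of the 105 at 254 nm. These shares stand near those of all 179 tested members, of which 58.7% were called lower at 254 nm and 76.0% at 365 nm, so nothing is read from the overlap. ZNF480 and ZNF695 were called higher in both. ZNF282 and ZNF287 were called lower at 365 nm and higher at 254 nm. ZNF282, a KRAB protein first described as a repressor at a retroviral long terminal repeat, had 28.1 and 25.2 CPM in 365 nm cells, against 76.7 and 73.1 CPM in 4SU cells (-1.497 ± 0.37, adjusted p = 0.000666). It had 80.9 and 72.8 CPM in 254 nm cells, against 56.8 and 30.3 CPM in untreated cells (0.81 ± 0.33, adjusted p = 0.0369). The rise at 254 nm was weakly held: with library totals it was -0.05, and leaving out any 1 library other than untreated A gave an adjusted p of 0.0504 to 0.323. ZNF287 had 4.49 and 2.80 CPM, or 4 and 4 tags, in 365 nm cells, against 12.2 and 10.2 CPM in 4SU cells (-1.66 ± 0.57, adjusted p = 0.0124). It had 25.4 and 24.4 CPM in 254 nm cells, against 8.56 and 11.4 CPM in untreated cells (1.32 ± 0.40, adjusted p = 0.00532). Its fall at 365 nm was not called without library B of the 365 nm group (0.176) or library A of the 4SU group (0.0521), in DESeq2 (0.0666), or with the length (0.119) or the length and GC (0.145) correction.

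**Figure D3:**
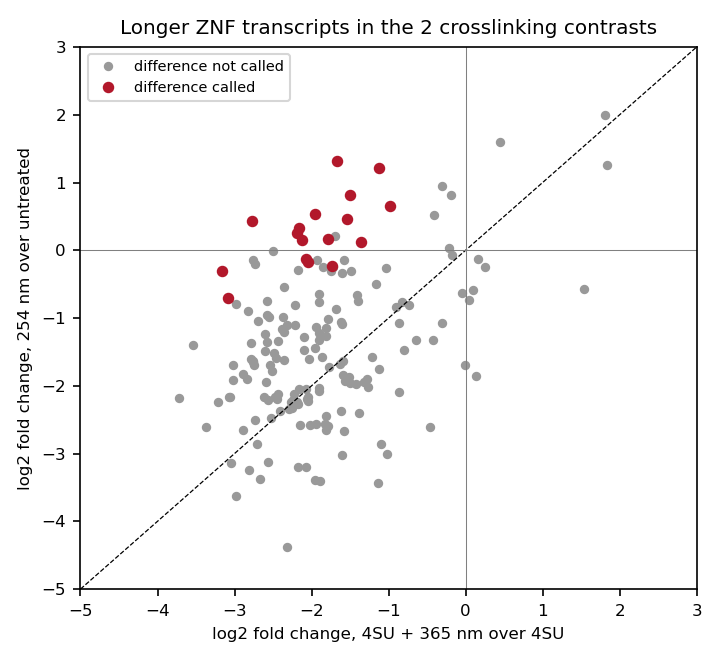
Log2 fold changes of 174 tested members with 4SU and 365 nm over 4SU (horizontal axis) and with 254 nm over untreated (vertical axis); 5 members with a fitted value below -5, each at 0 tags in a crosslinked group, are left out. Red dots are members whose 2 changes differed at an adjusted p under 0.05; all lie above the dashed line of equal change.

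Tested directly, the 365 nm change was lower than the 254 nm change in 18 of 179 members (10.1%) and higher in 0 (edgeR). Among all features 7.08% were lower and 9.99% higher, and among features over 3300 nt 4.18% and 12.2%. Of the 177 shorter ZNF transcripts 33 were lower and 0 higher, so the direction is not particular to the longer ones. The median difference was -1.15 in shorter ZNF transcripts and -0.57 in members. At an unadjusted p under 0.05 the 2 changes differed in 37 members in either direction, and DESeq2 called 12 lower and 0 higher. Of the 18, 17 were themselves called lower at 365 nm. The 18 were short and poor in uridine for members, with a median length of 3868 nt and a median uridine share of 19.4% in the 16 with a GENCODE transcript. ZNF341, which activates transcription of STAT3, had 1.12 and 2.10 CPM in 365 nm cells, against 10.8 and 13.0 CPM in 4SU cells, and 11.4 and 7.81 CPM in 254 nm cells, against 7.97 and 6.12 CPM in untreated cells. Its changes differed by -3.21 ± 0.84 (adjusted p = 0.00597), and its 365 nm values rest on 1 and 3 tags. ZNF335, a gene of microcephaly whose product belongs to a histone methyltransferase complex, had 23.6 and 26.6 CPM in 365 nm cells, against 46.0 and 53.3 CPM in 4SU cells, and 69.1 and 66.4 CPM in 254 nm cells, against 50.4 and 35.7 CPM in untreated cells (difference -1.63 ± 0.49, adjusted p = 0.016). The call for ZNF335 was lost without library A or B of the 365 nm group (0.0869 and 0.0739), library B of the 4SU group (0.066) or library A of the 254 nm group (0.0593). Leaving out 1 library gave 2 to 24 members lower, the 2 without library B of the 365 nm group. It was 10 without library A of the 365 nm group, and 11 without either 4SU library.

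Within the members, the change at 254 nm followed transcript length and uridine, and the change at 365 nm showed no such gradient. Members held 1320 and 1734 tags in the 365 nm libraries, against 3930 and 3303 in the 254 nm libraries. Whether these lower counts hid a gradient at 365 nm was not tested. Of the 45 tested members at 3301 to 3954 nt, 14 fell at 254 nm with a median log2 fold change of -0.77. Those up to 4675 nt and those up to 5940 nt had 24 of 45 and 33 of 44 lower at medians of -1.36 and -1.83. Of the longest 45, at 5958 to 12171 nt, 34 fell at a median of -2.02. At 365 nm the medians of the same 4 length classes were -1.96, -1.94, -2.06 and -1.96, with 30, 34, 37 and 35 members lower.

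By uridine share the 165 tested members with a GENCODE transcript split the same way. The 55 with 13.9% to 24.8% uridine had a median of -0.63 at 254 nm, the next 55 -1.69 and the 55 with 27.9% to 33.5% uridine -2.12. At 365 nm these medians were -2.03, -2.02 and -1.93. Spearman's rank correlation across members with the 254 nm change was -0.37 for length (n = 179), -0.48 for uridine share and 0.44 for GC share (n = 165 each), and with the 365 nm change it was -0.04, -0.05 and -0.04. The difference of the 2 changes had a rank correlation of 0.31 with length and 0.44 with uridine share. Length and uridine share were themselves related (rank correlation 0.20), and these members share their libraries and partly their sequence. Across all features the rank correlation with length was -0.45 at 365 nm and -0.65 at 254 nm (n = 13732), and across features over 3300 nt -0.14 and -0.33 (n = 5459). The 254 nm change had -0.53 with uridine share and 0.56 with GC share across all features (n = 10968). Across features over 3300 nt these were -0.56 and 0.59 (n = 5039), so the relation at 254 nm is not particular to members. The 365 nm change had -0.16 and 0.18 across those features. The 2 untreated libraries differed along the same property: the rank correlation of the library A over B ratio of members was 0.49 with GC share and -0.42 with uridine share, where the 254 nm pair gave 0.01 and 0.06. The part of that difference in the result was not tested.

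**Figure D4:**
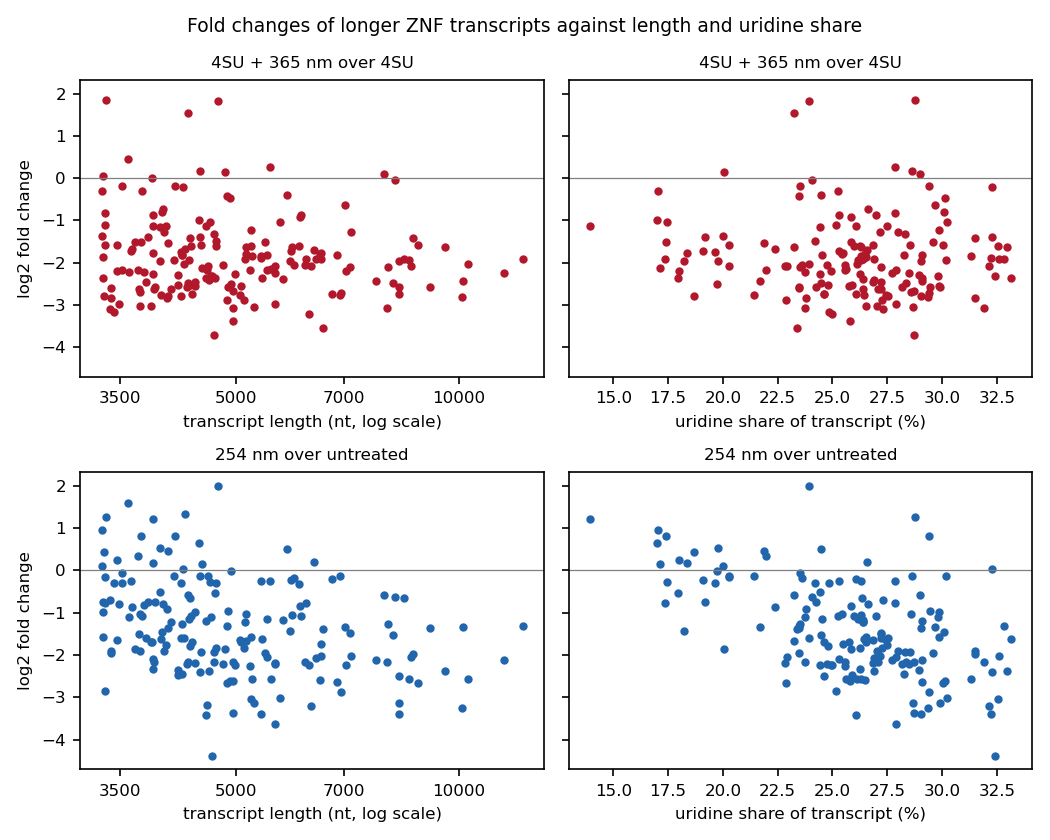
Log2 fold changes (vertical axes) of members with 4SU and 365 nm over 4SU (top) and 254 nm over untreated (bottom), against transcript length on a log axis (left, 174 members) and uridine share (right, those with a GENCODE transcript). The 254 nm changes slope downwards with both properties and the 365 nm changes are level.

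Protein features showed little such relation. Members with a KRAB box had a median log2 fold change of -1.92 at 365 nm and -1.53 at 254 nm (94 tested), and those without -2.07 and -1.64 (71 tested). Members on chromosome 19 stood at -1.92 and -1.63 (76 tested), and those elsewhere at -2.03 and -1.33 (103 tested). The rank correlation with the number of fingers was -0.01 at 365 nm and -0.05 at 254 nm (n = 165). In the 81 tested members without split tags, 64 were lower and 1 higher at 365 nm, and 45 lower and 6 higher at 254 nm.

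In the fit that took libraries A and B as unpaired, 4SU without crosslinking changed few members. Relative to untreated cells 4 rose and 1 fell, against 3.85% of all features called higher and 3.7% lower, and the median log2 fold change was 0.32 in members, 0.46 in shorter ZNF transcripts and 0.02 in all features. ZNF473 encodes a factor of histone pre-mRNA processing in the U7 particle. It had 59.9 and 58.4 CPM in 4SU cells, against 17.7 and 22.6 CPM in untreated cells (1.55 ± 0.35, adjusted p = 0.00366), and kept its call without any 1 library. ZNF862 had 10.2 and 13.6 CPM in 4SU cells, against 1.39 and 3.46 CPM in untreated cells (2.34 ± 0.50, adjusted p = 0.0023, and 0.0563 without library B of the 4SU group). ZNF557 and ZNF776, both with KRAB boxes, rose by 1.35 ± 0.38 and 1.27 ± 0.38 (adjusted p = 0.0207 and 0.0291). Neither was called without library A (0.154 and 0.159) or library B (0.131 and 0.143) of the 4SU group, and ZNF776 was not called without library A of the untreated group (0.0832). ZNF711 had 186 and 188 CPM in 4SU cells, against 306 and 589 CPM in untreated cells (-1.25 ± 0.37, adjusted p = 0.0295). Its call was lost without library A or B of the 4SU group (0.164 and 0.0979) or library B of the untreated group (0.32). The number called higher was 10 without library A of the untreated group, 7 without its library B, and 2 and 1 without library A and library B of the 4SU group. The number of all features called also moved when a library was left out. With length and GC trends removed, 769 of all 11197 features were called higher, among them 39 members. The number called lower was 6 without library A of the untreated group, and 0 without its library B or without either 4SU library.

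A list drawn up for silencing of repeats and imprints held 5 members. These were ZNF91, which silences SVA elements, ZNF445, which keeps imprints, and ZNF202, ZNF268 and ZNF84, for which no such role is given here. At 365 nm 3 of these 5 fell, ZNF91, ZNF445 and ZNF202, where 33.7% of all features and 136 of 179 members did. At 254 nm 2 fell, ZNF445 and ZNF84, where 28% of all features and 105 of 179 members did. With the length correction 0 of the 3 and 0 of the 2 kept their call, and with length and GC trends removed 2 and 0 did. ZNF202 also lost its call at 365 nm without library B of the 365 nm group (0.0945). ZNF84 lost its call at 254 nm without library B of the 254 nm group (0.087), and with the length and the length and GC corrections its value turned to 0.073 and 0.58. ZNF445 had 11.2 and 7.0002 CPM in 365 nm cells, against 27.8 and 43.3 CPM in 4SU cells (-2.02 ± 0.47, adjusted p = 0.000376), and 9.54 and 2.93 CPM in 254 nm cells, against 37.0 and 38.6 CPM in untreated cells (-2.58 ± 0.45, adjusted p = 8.65e-06). With the length correction it was called in neither (0.0893 and 0.0929). ZNF91 had 1.12 and 2.10 CPM in 365 nm cells, against 5.68 and 6.78 CPM in 4SU cells (-1.85 ± 0.74, adjusted p = 0.0298), a call lost without any 1 of these 4 libraries (0.0574 to 0.149). At 254 nm ZNF91 had 2.73 and 2.93 CPM, against 2.79 and 3.99 CPM in untreated cells, and was not called (0.757). ZNF268 passed neither test (0.43 and 0.299).

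A list drawn up for larger transcriptional coregulators held 19 members, of which 18 were tested. Of these, 15 fell and 0 rose at 365 nm (median -2.17), and 14 fell and 0 rose at 254 nm (median -2.18). The shares called lower were 33.7% and 28% of all features in the same order, and 76.0% and 58.7% of the tested members. With the length correction 11 of the 15 kept their call at 365 nm and 4 of the 14 at 254 nm, and with length and GC trends removed 13 and 2 did. ZNF318 turned to 0.25 and 0.12 at 254 nm under these corrections. They include the 3 related finger proteins that join ZMYND8, ZNF592, ZNF687 and ZNF532. Differences between these genes were not tested. ZNF592 had 61.8 and 75.6 CPM in 365 nm cells, against 64.5 and 77.6 CPM in 4SU cells (-0.04 ± 0.33, adjusted p = 0.914). ZNF687 had 16.8 and 12.6 CPM in 365 nm cells, against 55.7 and 66.1 CPM in 4SU cells (-2.07 ± 0.41, adjusted p = 4.2e-05), but at 254 nm 42.3 and 24.9 CPM, against 45.6 and 27.4 CPM in untreated cells (-0.12 ± 0.35, adjusted p = 0.786). ZNF532 fell at 254 nm (-2.59 ± 0.84, adjusted p = 0.00862), and at 365 nm its log2 fold change was -1.79 ± 0.88 (adjusted p = 0.0757). The 254 nm call was lost without library B of the 254 nm group (0.16) or library B of the untreated group (0.0659), and with the length (0.272) or the length and GC (0.368) correction. ZNF644, a partner of the histone methyltransferases G9a and GLP, fell in both comparisons, with log2 fold changes of -2.24 and -2.21 (adjusted p = 1.64e-05 and 1.01e-05). With length and GC trends removed it was not called at 254 nm (0.501). ZNF423, a partner of Smad proteins, had 8.98 and 4.20 CPM in 365 nm cells, against 3.41 and 7.54 CPM in 4SU cells, with the groups overlapping, and fell at 254 nm (-1.85 ± 0.73, adjusted p = 0.0291). That call was lost without either library of the 254 nm group or library B of the untreated group (0.0721 to 0.16), in DESeq2 (0.0801), and with the length (0.379) or the length and GC (0.143) correction.

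A list drawn up for links to RNA or ubiquitin-like modification held the members ZNF638, ZNF451 and ZNF512B, and all 3 fell in both comparisons. ZNF638 is an RNA-binding protein also known for silencing unintegrated retroviral DNA, and ZNF451 is a SUMO ligase. No such role is given here for ZNF512B. ZNF638 had 27.0 and 23.8 CPM in 365 nm cells, against 69.3 and 103 CPM in 4SU cells (-1.77 ± 0.39, adjusted p = 0.000179), and 23.2 and 27.8 CPM in 254 nm cells, against 51.8 and 118 CPM in untreated cells (-1.73 ± 0.37, adjusted p = 0.000143). ZNF451 fell by 1.21 on the log2 scale at 365 nm (adjusted p = 0.0213) and was not called there without library B of the 365 nm group (0.343) or library B of the 4SU group (0.0821), with RLE factors (0.0729), in DESeq2 (0.113), or with the length (0.4001) or the length and GC (0.598) correction. At 254 nm ZNF451 was not called with the length correction (0.368). With length and GC trends removed, the 254 nm values of ZNF638 and ZNF451 turned to 0.20 each. ZNF512B kept its call at 365 nm and lost it at 254 nm with the length correction (0.64).

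Of 25 genes of the machinery that KRAB proteins recruit, 24 were tested and TRIM28 was not analysed here. At 365 nm 12 fell and 4 rose, with a median of -0.78, and at 254 nm 13 fell and 0 rose, with a median of -1.13. Among all features 33.7% fell and 26.1% rose at 365 nm, and 28% fell and 25.2% rose at 254 nm. The median length in the list was 4458 nt, and of all features over 3300 nt 52.5% fell at 365 nm and 53.6% at 254 nm. With 4SU alone 1 fell, DNMT3B. The methyltransferase gene SETDB1 fell at 365 nm (log2 fold change -1.11, adjusted p = 0.00788) and was not called at 254 nm (-0.51, adjusted p = 0.202). The remodeller genes CHD3 and CHD4 rose at 365 nm by 2.99 and 1.34 (adjusted p = 1.42e-08 and 0.00183), although their transcripts are 7372 and 6511 nt long. The other 2 that rose were RBBP7 at 1.60 and CBX3 at 1.34. TASOR, of the HUSH silencing complex, fell in both, with log2 fold changes of -1.70 at 365 nm and -2.19 at 254 nm (adjusted p = 0.000524 and 1.23e-05).

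The siRNA pair asked for differences on depletion of HuR, the RNA-binding protein encoded by ELAVL1 that binds uridine-rich sequences. ELAVL1 itself had 638 tags in the HuR siRNA library, against 1905 tags in the GFP siRNA library. With 1 library per siRNA there is no test, and the intervals given are 95% exact counting intervals that cover counting error only. The median log2 ratio of HuR over GFP siRNA was -0.53 in the 195 members, -0.30 in 191 shorter ZNF transcripts, -0.27 in all 6381 features over 3300 nt and 0.01 in all 17804 features with at least 10 tags. Of the 195 members 28 were lower by more than 2-fold and 1 was higher. Of the 6381 features over 3300 nt 620 were lower and 123 higher by that much. Of all features 6.25% were lower and 4.52% higher.

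Among members with at least 50 tags over both libraries, ZNF614 was lowest, with 72 tags in the HuR siRNA library and 252 in the GFP siRNA library (log2 ratio -1.73, interval -2.16 to -1.38). ZNF117 had 14 and 51 tags in the same order (-1.68), ZNF41 48 and 158 (-1.63), ZNF25 53 and 167 (-1.57) and ZNF518A 205 and 618 (-1.53, interval -1.78 to -1.31). ZNF628 was highest, with 137 tags in the HuR siRNA library and 58 in the GFP siRNA library (1.26, interval 0.84 to 1.76). ZNF213, ZNF282, ZNF587 and ZNF512B followed at 0.78, 0.61, 0.59 and 0.53. The 2 most abundant members were lower, ZNF711 with 6799 tags in the HuR siRNA library and 10696 in the GFP siRNA library (-0.60) and ZNF146 with 1739 and 3518 (-0.97).

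The ratio moved with base composition in members and in all features alike. Spearman's rank correlation of the ratio across members was -0.44 with uridine share and 0.57 with GC share (n = 180) and -0.05 with length (n = 195). Across all features it was -0.61 with uridine share and 0.70 with GC share (n = 12745). The points share 1 pair of libraries. A relation with GC of like sign separated the 2 untreated libraries, and its part in the siRNA ratio was not tested.

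**Figure D5:**
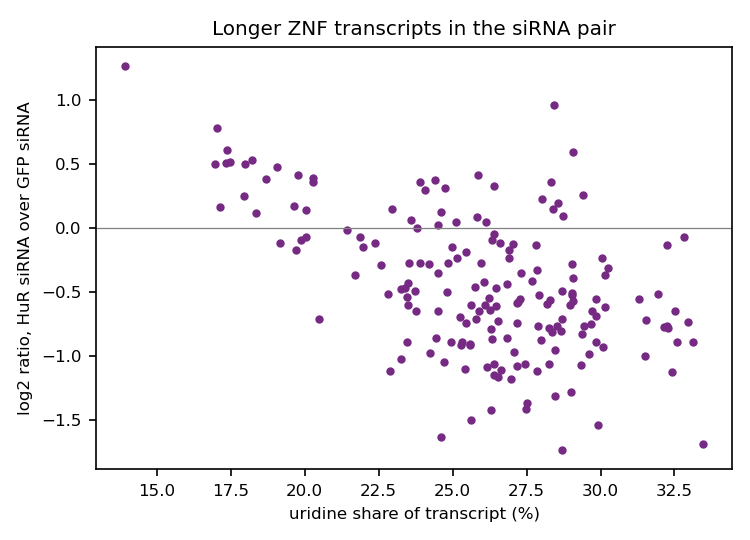
Log2 ratio of the HuR siRNA library over the GFP siRNA library (vertical axis) against the uridine share of the transcript (horizontal axis) for the 180 members with a GENCODE transcript, 1 dot each. Members poor in uridine lie mostly near or above 0, and the median of all 195 members is -0.53.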

How the data were processed

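Per transcript, the deposited files hold the authors' expected counts (tags, not normalized), a length and an expression value, a signal the authors scaled to length and library, which was not used here. The aligner and build were not given in the sources used. Expected counts were rounded to whole tags. Accessions were named from RefSeq (15886 of 25005 transcripts) and GENCODE v29 (133), and 8986 stayed unnamed. A single quasi-likelihood model of edgeR 4.0.16 (R 4.3.3), with TMM factors and filterByExpr, covered the 8 libraries and tested 13732 features. Benjamini-Hochberg adjustment ran over all of them, with calls at 0.05, and tests were two-sided. The SE of a log2 fold change is its size over the root of its F statistic. For the siRNA ratios a prior count of 2 was added after TMM scaling, on 9016803 tags in the HuR siRNA library and 8688262 in the GFP siRNA library. In the 8 libraries 3 tags equal 0.968 to 1.34 CPM before TMM scaling. On the scaled values printed here, 3 tags equal 3.37 and 2.10 CPM in libraries A and B of the 365 nm group. Intervals cover counting error only, and floors leave out the counting error of the other group. The 16 untested members had 17 to 69 tags. The KRAB consensus came from 198 windows.

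The members, gene lists and comparisons were chosen with earlier results of these data known. Members named are the largest called changes with non-overlapping groups (up to 8 each way per contrast, 4 for the difference), the 8 highest levels per kilobase, the 5 highest and 5 lowest siRNA ratios with at least 50 tags, members of 3 role lists and those next to each limit. ZNF213 at 254 nm and ZNF512 were named after their values were seen. The script was tested on simulated data. Alternatives were DESeq2 1.42.0, RLE factors, library totals, dropping the filter, at least 5 CPM on average, fits of only the 2 groups compared, a replicate block, length correction, removal of length and GC trends (81.5% of features had a GC value), calls at 0.01, and omitting each library in turn.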

Additional observations from a re-analysis of the deposited data

Results flagged for a closer look

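The test of the difference between the 365 nm and 254 nm changes, in edgeR, called 18 members, of which 4 with the largest fitted differences are given here. The smallest adjusted p among the 18 was that of ZNF282 (-2.31 on the log2 scale, adjusted p = 0.00083). At 365 nm the values of ZNF341 rest on 1 and 3 tags, and those of ZNF287 and ZNF329 on 4 and 4 tags each. ZNF341 differed by -3.21 on the log2 scale (adjusted p = 0.00597), a call held without any 1 library. ZNF287 differed by -2.99 (adjusted p = 0.00212, and 0.0501 without library B of the 365 nm group), with 4.49 and 2.80 CPM in 365 nm cells, against 12.2 and 10.2 CPM in 4SU cells, and 25.4 and 24.4 CPM in 254 nm cells, against 8.56 and 11.4 CPM in untreated cells. ZNF329, whose tags were partly split, differed by -2.86 (adjusted p = 0.00411, and 0.0736 without library B of the 365 nm group), with 4.49 and 2.80 CPM in 365 nm cells, against 34.1 and 29.02 CPM in 4SU cells, and 11.8 and 12.2 CPM in 254 nm cells, against 9.16 and 20.8 CPM in untreated cells. ZNF215 differed by a fitted -6.17 (adjusted p = 0.0446), a size that is no bound since both 365 nm libraries held 0 tags, and its call was lost without any of 6 single libraries (0.056 to 0.246).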

How the results depend on the processing

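The members' median kept its direction in all 4 contrasts under every alternative run, while counts moved: at 365 nm 104 to 176 members were lower under every alternative but the length correction (83), the length and GC correction (91) and the leaving out of libraries (71 to 139), and at 254 nm 82 to 146 but for the length (32) and the length and GC (17) corrections and the leaving out of libraries (68 to 111). With the length correction 6 members were higher at 365 nm, 19 higher at 254 nm and 17 higher with 4SU alone. In the test of the difference 30 had the lower change at 365 nm. Of all 13732 features that fit called 3328, 2370, 643 and 1048 in the same order. With length and GC trends removed the members' numbers were 5, 14, 39 and 38, against 2596, 896, 769 and 1273 of all 11197 features. In that fit 3 members were lower with 4SU alone and 1 was higher in the difference. With library totals the members' numbers were 0 higher at 365 nm, 1 higher at 254 nm, 0 lower with 4SU alone and 61 lower in the difference. Of all 13732 features 1019, 1384, 236 and 4465 were called in the same order. The siRNA median of members with library totals was -0.63. DESeq2 gave 2 higher and 0 lower with 4SU alone, an adjusted p of 0.01 gave 2 higher and 0 lower there, 3 higher at 254 nm and 5 lower in the difference, no filter gave 2 lower with 4SU alone, and RLE factors gave 1 higher in the difference. Leaving out 1 library gave 1 to 10 higher and 0 to 6 lower with 4SU alone, 4 to 9 higher at 254 nm, and 0 to 2 higher and 2 to 24 lower in the difference. A group then has 1 library, assumed to vary like the others.

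Log2 fold changes that turned round were those of ZNF695 (-0.12), ZNF480 (-0.11) and ZNF185 (-0.37) at 365 nm and ZNF282 (-0.046) at 254 nm with library totals, ZNF84 (0.073) and ZNF318 (0.25) at 254 nm with the length correction, and ZNF84 (0.58), ZNF318 (0.12), ZNF638 (0.20) and ZNF451 (0.20) at 254 nm with length and GC trends removed. The cause was not tested. Of the named members called, 21 of 46 at 365 nm, 14 of 38 at 254 nm, 4 of 5 with 4SU alone and 9 of 11 in the difference lost the call without some library, and 19, 30, 3 and 6 under some other alternative.

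Whether libraries with the same letter belong together is not stated, and the main fit took them as unpaired. Deviations of same-lettered libraries correlated at -0.09 to 0.35, not over 0.1 in every pair of groups. The correlation was 0.35 between the 4SU and untreated groups and 0.16 between the 365 nm and 4SU groups. With 4SU alone, a replicate block called 862 of all features higher and 832 lower, against 528 and 508 without it. A replicate block gave 14 members higher with 4SU alone and 1 higher in the difference, and moved no other count by over 1.5 times. Depth limits members with few tags: those at 0 tags in a group could only be bounded.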
